A study of Mus musculus with 5 samples.

Results

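The windows described here are stretches of 1 kb of the mouse genome (build mm9) that carried almost no CpG methylation in wild-type embryonic stem (ES) cells and stayed that way in ES cells homozygous for the Fbxl10 T allele. A window was measured when it held at least 5 CpGs, outside the CCGG sites cut by MspI, that were covered by at least 10 reads in both libraries. It was a member when its mean methylation was below 10% in WT and differed by no more than 5 percentage points in Fbxl10 T/T. Of 16881 measured autosomal windows, 14053 lay below 10% in WT, and 10329 of these (73.5%) were members. Another 2933 windows (20.9%) rose by 20 points or more and are called risen windows below. A further 684 (4.87%) rose by 5 to 20 points, and 107 (0.761%) fell by over 5 points. Over all measured windows, 63.8% lay within 5 points of WT, 25.3% were 20 points or more higher and 1.69% were 20 points or more lower. These values chose the members, so the closeness of the 2 libraries within them is a description and was not tested.

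Reduced representation bisulfite sequencing, in which DNA is cut with MspI and cytosines that lack methylation are read as T, was done on 1 library per genotype. The mutant libraries were Fbxl10 T/T, Ring1B -/-, Eed -/- and Ezh2 -/-, and the reference was WT. Fbxl10 T/T and WT cells were labelled C57BL/6J, were grown with serum and LIF on inactivated embryonic fibroblast feeders that were depleted before use, and were harvested at passage 17. The 3 Polycomb mutant lines were described only as ES cells in serum with LIF, with no strain or passage. The T allele is not described further in the labels, and no label says whether a line is a single clone. Genotype, culture and library can therefore not be told apart in any comparison, and no comparison has a replicate. Reads at CpGs of the autosomes and X chromosome summed to 27289499 in Fbxl10 T/T, to between 1763598 and 1939239 in the 3 Polycomb mutants and 42999787 in WT. The median CpG had 23 reads in Fbxl10 T/T, 3 in each Polycomb mutant and 33 in WT. A read that covers several CpGs was counted at each, so the 95% Wilson intervals given here cover counting error only and are too narrow. The labelled cell type was not checked against markers, because methylation values carry no marker expression.

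FBXL10, also named KDM2B, is a protein with a CXXC zinc finger that binds unmethylated CpGs, and it brings a variant form of Polycomb repressive complex 1 to CpG islands. CpG islands are CpG-rich stretches, many of them at gene starts, that stay free of DNA methylation in most tissues although CpGs elsewhere are mostly methylated. RING1B gives that complex its ubiquitin ligase activity towards histone H2A. The second Polycomb complex, to which EED and EZH2 belong, methylates histone H3 at silent developmental genes.

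As examples, 9 promoters are printed, 6 of members and 3 of risen windows, in RefSeq sequence of build GRCm38.p6. Each runs from 200 bases before to 30 bases after the annotated start. Each was tied to its mm9 window by the letters of the deposited 5-base contexts and not by moving coordinates. Capitals mark CCGGAAG or its reverse complement CTTCCGG, a core motif of ETS-family transcription factors, whose share differed between the promoters of members and of risen windows. The members shown are the promoters of Rps7 at chr12:28635924-28636153 (minus strand), Rps10 at chr17:27635215-27635444 (minus strand), Psma6 at chr12:55398625-55398854 (plus strand), Psmc2 at chr5:21785075-21785304 (plus strand), Orc1 at chr4:108579254-108579483 (plus strand) and Dlx1 at chr2:71529245-71529474 (plus strand). Rps7 and Rps10 encode proteins of the small ribosomal subunit, Psma6 and Psmc2 encode proteasome subunits, Orc1 encodes a subunit of the origin recognition complex, and Dlx1 encodes a homeodomain transcription factor. The first 5 were chosen, after their values were seen, among list genes that carry the motif. Only 24.4% of promoters in members held it, so these 5 are not typical of members. Dlx1 was the only homeobox gene in members among promoters matched by 40 letters.
Rps7: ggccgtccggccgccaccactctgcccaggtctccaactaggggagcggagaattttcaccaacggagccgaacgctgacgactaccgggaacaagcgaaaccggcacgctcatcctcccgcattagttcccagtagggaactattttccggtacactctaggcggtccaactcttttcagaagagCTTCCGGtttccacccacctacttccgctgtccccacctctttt
Rps10: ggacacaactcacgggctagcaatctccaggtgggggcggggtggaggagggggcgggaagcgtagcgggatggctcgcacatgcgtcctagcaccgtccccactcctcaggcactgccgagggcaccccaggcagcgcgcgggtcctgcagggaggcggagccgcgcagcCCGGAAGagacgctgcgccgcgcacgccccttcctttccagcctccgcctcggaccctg
Psma6: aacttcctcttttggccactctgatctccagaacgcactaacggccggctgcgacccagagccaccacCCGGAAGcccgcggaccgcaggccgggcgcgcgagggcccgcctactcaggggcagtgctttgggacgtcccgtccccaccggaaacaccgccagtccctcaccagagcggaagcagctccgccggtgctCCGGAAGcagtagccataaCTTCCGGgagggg
Psmc2: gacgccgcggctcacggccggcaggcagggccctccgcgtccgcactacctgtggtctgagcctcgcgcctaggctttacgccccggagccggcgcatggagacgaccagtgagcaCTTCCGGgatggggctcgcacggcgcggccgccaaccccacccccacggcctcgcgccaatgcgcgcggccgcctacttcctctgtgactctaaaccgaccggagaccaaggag
Orc1: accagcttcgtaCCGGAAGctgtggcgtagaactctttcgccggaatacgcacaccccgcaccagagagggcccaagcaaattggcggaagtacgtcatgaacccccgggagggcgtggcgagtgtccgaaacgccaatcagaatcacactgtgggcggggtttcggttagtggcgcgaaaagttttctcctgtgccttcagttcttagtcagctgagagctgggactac
Dlx1: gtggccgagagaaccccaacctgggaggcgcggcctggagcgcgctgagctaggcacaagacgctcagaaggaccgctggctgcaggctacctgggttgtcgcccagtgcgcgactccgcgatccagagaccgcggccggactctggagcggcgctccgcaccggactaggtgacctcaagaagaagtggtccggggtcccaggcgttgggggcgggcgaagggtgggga
The windows of these 6 promoters averaged between 0.0703% and 3.89% in Fbxl10 T/T and between 0.252% and 4.35% in WT. Psma6 holds 3 copies of the motif in the stretch shown, the other ribosomal, proteasome and Orc1 promoters hold 1 each, and the Dlx1 stretch holds none.
The risen windows shown are the promoters of Dlx2 at chr2:71546725-71546954 (minus strand), Nkx6-2 at chr7:139582768-139582997 (minus strand) and Pax6 at chr2:105668696-105668925 (plus strand), all genes of homeodomain transcription factors, also chosen after their values were seen.
Dlx2: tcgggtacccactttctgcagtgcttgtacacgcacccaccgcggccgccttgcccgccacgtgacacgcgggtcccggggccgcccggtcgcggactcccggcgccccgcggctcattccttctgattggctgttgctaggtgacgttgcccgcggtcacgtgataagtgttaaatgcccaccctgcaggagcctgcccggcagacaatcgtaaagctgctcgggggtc
Nkx6-2: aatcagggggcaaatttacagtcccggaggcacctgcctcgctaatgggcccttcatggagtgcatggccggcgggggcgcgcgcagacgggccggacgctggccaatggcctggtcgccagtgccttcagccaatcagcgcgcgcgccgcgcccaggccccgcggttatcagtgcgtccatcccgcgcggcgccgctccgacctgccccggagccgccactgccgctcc
Pax6: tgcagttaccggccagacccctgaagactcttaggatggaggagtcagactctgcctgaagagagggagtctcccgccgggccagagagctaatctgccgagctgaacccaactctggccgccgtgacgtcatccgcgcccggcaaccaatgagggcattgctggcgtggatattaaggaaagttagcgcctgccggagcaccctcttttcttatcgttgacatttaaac
Dlx2 read 24.5% in Fbxl10 T/T against 1.8% in WT, Nkx6-2 read 79.4% against 3.89%, and Pax6 read 57.1% against 5.28%. These 3 stretches hold 25, 29 and 14 CpGs and no copy of the motif, while the 6 member stretches hold between 17 and 30 CpGs.

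Methylation of the members was low throughout. The median window averaged 1.01% in Fbxl10 T/T, with an interquartile range of 0.402% to 2.08%, and 1.18% in WT, with a range of 0.616% to 2.15%. The highest member stood at 14.6% in Fbxl10 T/T and the highest at 9.99% in WT. Pooled over the members' CpGs outside CCGG, 1.62% of 8713271 reads were methylated in Fbxl10 T/T (95% Wilson interval 1.61% to 1.63%) and 1.57% of 13470987 in WT (1.56% to 1.57%). The windows lay on both sides of no change, with 4309 higher in Fbxl10 T/T, 5796 lower and 224 equal. In 9545 members (92.4%) both libraries were below 5%, in 3224 (31.2%) both were below 1%, and in 223 no methylated read was seen in either. The risen windows had a median of 57.5% in Fbxl10 T/T and 3.4% in WT.

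**Figure D1:**
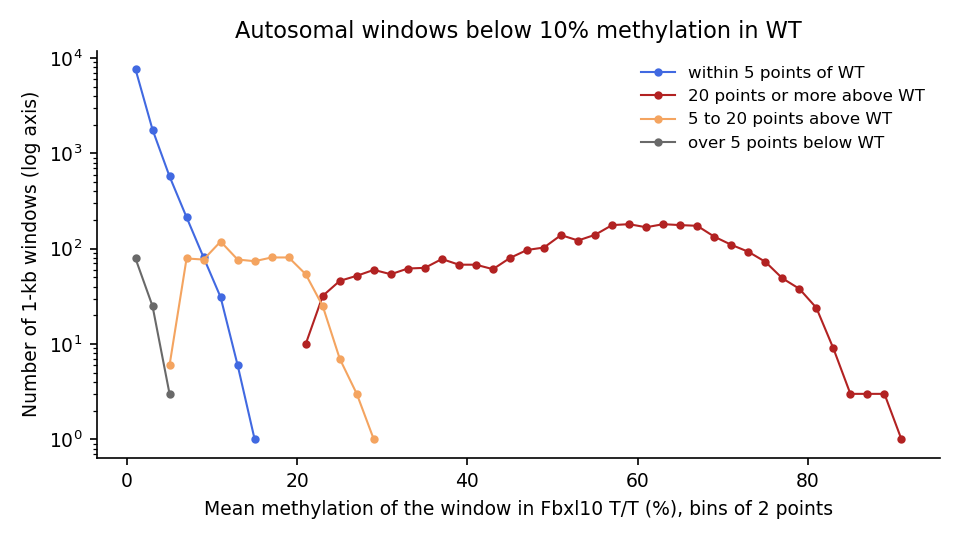
Number of autosomal 1-kb windows below 10% in WT (log axis) by their mean methylation in Fbxl10 T/T in bins of 2 points, for the 10329 members (within 5 points of WT), the 2933 risen windows, the 684 windows 5 to 20 points higher and the 107 that fell by over 5 points. The members crowd at the left end, with a median of 1.01%, and the risen windows spread around a median of 57.5%.

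The single CpGs described here are those whose mean chose the members, so their low values follow largely from the rule. Of 205114 CpGs measured outside CCGG, 72.4% had no methylated read in Fbxl10 T/T and 61.0% had none in WT, at the lower read depth of Fbxl10 T/T. In all, 274 CpGs (0.134%) were 25 points or more higher in Fbxl10 T/T, spread over 200 members, and 122 were 25 points or more lower. In the risen windows, chosen by their rise, 87.7% of CpGs were 25 points or more higher. The SD over the CpGs of a member had a median of 1.79 points in Fbxl10 T/T and 1.72 in WT, against 13.5 and 3.56 points in the risen windows. The members with the most CpGs are dense islands. The top 5 held 96 to 114 measured CpGs each, and averaged 0.985% to 2.44% in Fbxl10 T/T and 0.87% to 2.75% in WT. The densest, chr6:47998001-47999000, read 2.44% over 6964 reads in Fbxl10 T/T and 2.75% over 7711 reads in WT. The window that matched the promoter of Nr2f6, an orphan nuclear receptor gene, was chr8:73905001-73906000, with 0.985% in Fbxl10 T/T and 0.87% in WT.

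Values at the edges of the rule show how the boundaries fell. The 4 members closest to the WT limit read 9.93% to 9.99% in WT and 5.86% to 10.8% in Fbxl10 T/T, and the 4 nearest windows beyond it read at most 10.1% in WT and 8.02% to 10.5% in Fbxl10 T/T. At the upper tolerance the last 4 members differed from WT by 4.95 to 5.0 points, and the next 4 windows by 5.04 to 5.08 points. At the lower tolerance the last 4 members differed by -5.0 to -4.93 points, and the next 4 windows by -5.07 to -5.0 points.

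CpGs inside the CCGG sites were left out of the rule, but they lie in the same windows, libraries and reads as the CpGs it used. Their values are thus not an independent readout. Their median level in the members was 21.4% in Fbxl10 T/T and 21.5% in WT, far above the CpGs outside these sites in both libraries, and the median difference was -0.29 points. MspI cuts within these sites, so in this protocol they lie at fragment ends; what part this has in their level was not tested. Only 13 of 10329 members (0.126%) were 20 points or more higher in Fbxl10 T/T at these CpGs, against 24.7% of all measured windows. Another 3 were 20 points or more lower, against 0.906% of all. The members within 5 points numbered 8356 (80.9%), against 53.5% of all windows. In the risen windows 2805 of 2932 (95.7%) were 20 points or more higher, with a median difference of 41.7 points. The largest rises among members rested on few CpGs. The CCGG CpGs of chr1:155272001-155273000 read 45.2% of 38 reads over 2 sites in Fbxl10 T/T and 14.8% of 69 reads in WT. The other 4 of the top 5 rose by 25.3 to 28.0 points on 10 to 155 reads in Fbxl10 T/T.

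Cytosines outside CpGs were also unused by the rule. In the members the share of reads showing C before A was 0.376% in Fbxl10 T/T (0.37% to 0.382%) and 0.428% in WT (0.423% to 0.433%). Before C it was 0.6% in Fbxl10 T/T and 0.652% in WT, and before T it was 0.37% in Fbxl10 T/T and 0.417% in WT. All 3 contexts were thus slightly lower in Fbxl10 T/T. In the risen windows the order was the other way round, with 0.736% in Fbxl10 T/T and 0.415% in WT before A, 0.829% and 0.562% before C, and 0.476% and 0.394% before T.

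Windows beside a member were more often members, and less often risen, than windows beside any measured window. Of 5468 measured windows that adjoined a member, 5032 (92.0%) were members and 72 (1.32%) were risen. Of the windows adjoining any measured window, members included, 66.0% were members and 19.9% were risen. Of 1646 measured windows that adjoined a risen window, 72 (4.37%) were members and 1208 (73.4%) were risen. Among neighbours below 10% in WT, the risen share around members was 1.36% at 1 kb, 9.74% at 2 kb and 21.9% at 5 kb, and lay between 11.3% and 20.8% from 6 kb to 20 kb. Around risen windows it was 86.8% at 1 kb, 63.0% at 5 kb and 35.1% at 20 kb. Neighbours 1 kb apart can share an island and each pair is counted from both ends, so these counts are descriptions. The members formed 7813 runs of adjoining windows, of which 5495 were single windows, 2141 held 2, 157 held 3, 19 held 4 and 1 held 5.

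**Figure D2:**
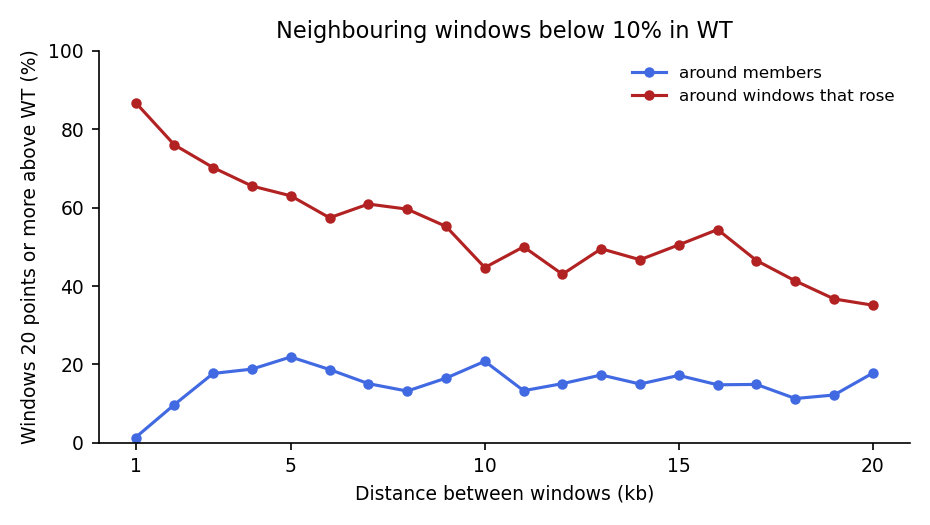
Share of windows below 10% in WT that were 20 points or more higher in Fbxl10 T/T (y axis, percent), by their distance in kb from a member (blue) or from a risen window (red). The share is 1.36% beside members and 86.8% beside risen windows at 1 kb, and the lines approach each other with distance, at 17.8% and 35.1% at 20 kb.

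The longest run, chr13:53073001-53078000, matched the promoter of Nfil3, which encodes a basic leucine zipper transcription factor. Over its 77 CpGs it averaged 1.1% in Fbxl10 T/T and 2.69% in WT. A run of 4 at chr11:102178001-102182000 matched the promoter of Ubtf, whose product drives transcription of ribosomal RNA genes, with 1.89% in Fbxl10 T/T and 2.56% in WT over 150 CpGs. The 4 windows at chr15:96115001-96119000 averaged 1.2% in Fbxl10 T/T and 1.87% in WT over 180 CpGs. Sharp borders did occur. The member chr11:22759001-22760000 read 2.46% in Fbxl10 T/T and 3.73% in WT, and the adjoining chr11:22758001-22759000 read 75.9% in Fbxl10 T/T and 6.29% in WT. The member chr12:62624001-62625000, at the promoter of Lrfn5, which encodes a synaptic adhesion protein, read 2.32% in Fbxl10 T/T and 0.936% in WT, and the window after it read 73.0% and 4.96%. The member chr8:72425001-72426000 read 0.694% in Fbxl10 T/T and 2.0% in WT, next to a window at the promoter of Ndufa13, a subunit of respiratory complex I, with 72.5% and 5.86%.

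Members listed somewhat more CpGs than risen windows, and their known letters had nearly the same base composition. A member listed a median of 30 CpGs in the tables and a risen window 27, of which 8 and 7 lay in CCGG sites. Median GC content over the known letters was 73.7% in members and 73.6% in risen windows, and the median ratio of observed to expected CpGs was 0.981 and 0.939. The share of windows below 10% in WT that were members was 66.9% of those with fewer than 10 listed CpGs, 69.8% with 10 to 19, 73.6% with 20 to 39, 75.1% with 40 to 59, 78.3% with 60 to 79 and 82.7% with 80 or more. The risen share went the other way, at 24.1% in the sparsest class and 14.0% in the densest. By chromosome the member share ran from 68.8% on chromosome 15 to 79.8% on chromosome 16, so no autosome was without either kind. Members also had more reads, with a median of 651 in Fbxl10 T/T and 1004 in WT per member against 424 and 818 per risen window; what part depth has in the shares was not tested.

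Gene starts were more frequent among members. Of 32851 RefSeq promoters, each 300 bases long, 4649 shared a run of at least 40 letters with the contexts in the tables, all on the chromosome that RefSeq gives, and 4121 matched once, without a mismatch, in a measured autosomal window. Of these, 3312 promoters of 3018 genes lay in 2733 members (26.5% of members), and 518 promoters of 481 genes lay in 459 risen windows (15.6%). Over all measured windows the share was 20.5%. Promoters outside the sequenced letters were not matched, so these shares are lower limits. In the members, 326 promoter windows (11.9%) held starts on opposite strands, against 32 (6.97%) in the risen windows and 10.6% in all measured windows. Protein-coding genes made up 87.3% of the members' promoters, 83.0% of those in risen windows and 86.6% of those in all measured windows. The members' shares were thus near those of all measured windows, which include the members.

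Lists of basic cell functions had all their few measured genes in members, while most measured homeobox genes, given below, were risen. Over all 3756 matched genes, 80.1% had promoters in members only and 12.5% in risen windows only, and each list is set against these shares. All 14 measured genes of ribosomal proteins, all 5 of the proteasome, both of glycolysis and all 3 of replication licensing lay in members. The lists of 5 genes or fewer are too short to be set apart from the 80.1% of all matched genes. Among ribosomal genes with the most CpGs, the Rps7 window (chr12:29320001-29321000) read 1.27% in Fbxl10 T/T and 0.252% in WT over 38 CpGs, and the Rpl13 window read 1.03% and 0.758%. Rps15 read 0.394% in Fbxl10 T/T and 1.24% in WT, Rps19 read 0.695% and 0.47%, Rpl9 read 0.477% and 0.299%, and Rps10 read 0.0703% and 1.07%. All ribosomal windows were at or below 3.04% in Fbxl10 T/T and 3.95% in WT. The proteasome genes Psma7, Psmc2, Psmc6, Psmc5 and Psma6 read 0.577%, 0.321%, 0.312%, 0% and 3.89% in Fbxl10 T/T, against 0.21%, 0.558%, 1.39%, 1.59% and 4.35% in WT. Pfkl and Gpi1, enzymes of early glycolysis, read 0.441% and 0.965% in Fbxl10 T/T, against 0.312% and 1.39% in WT. Orc2, Cdt1 and Orc1, which load the replicative helicase, read 3.0%, 0% and 0.421% in Fbxl10 T/T, against 2.73%, 0.941% and 0.788% in WT.

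Few genes of ES cell identity and of chromatin were measured, and their share in members is read beside the 80.1% of all matched genes. Of the pluripotency list 3 genes were measured and all were members. Klf2, a transcription factor of naive pluripotency, read 1.89% in Fbxl10 T/T and 1.01% in WT, Lin28a, an RNA-binding protein, read 0% and 1.56%, and Tfcp2l1, another naive factor, read 3.54% and 2.36%. The Tfcp2l1 window was among those called higher in Eed -/- in the comparison given below. There it read 28.2% of 39 reads in Eed -/- and 6.88% of 654 in WT over the CpGs compared. It read 0% of 13 reads in Ring1B -/- and 15.4% of 26 in Ezh2 -/-. The 4 measured genes of DNA methylation were members too. Dnmt3a, a de novo methyltransferase, matched 2 adjoining windows with 0.695% and 1.13% in Fbxl10 T/T, against 0.73% and 1.07% in WT. Dnmt3b, the other de novo enzyme, read 0.406% in Fbxl10 T/T and 0.652% in WT. Tet3, an oxidase of methylated cytosine, read 1.07% in Fbxl10 T/T and 2.22% in WT, and Uhrf1, which brings the maintenance enzyme to replicated DNA, read 0.529% and 0.208%. Of 10 measured genes of Polycomb and trithorax complexes, 8 were members and 2 were risen, close to the share of all matched genes. Jarid2 and Suz12, which encode proteins of complex 2, read 2.0% and 1.98% in Fbxl10 T/T, against 2.39% and 2.06% in WT. Pcgf5, of a variant complex 1, read 1.54% in Fbxl10 T/T and 2.5% in WT, and Rbbp4, a histone-binding protein, read 4.23% and 4.46%. Kmt2a, a methyltransferase of the trithorax group, read 0.943% in Fbxl10 T/T and 1.92% in WT. Phc2, a subunit of complex 1, matched 2 members with 7.33% and 3.14% in Fbxl10 T/T, against 4.55% and 2.27% in WT. The exceptions were Cbx7, a chromodomain subunit of complex 1, with 70.7% in Fbxl10 T/T and 1.65% in WT, and Phf19, an accessory protein of complex 2, with 61.0% and 2.25%.

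Among 15 measured homeobox genes, 1 was a member and 12 were risen, while 1 lay between and 1 was above 10% in WT. The member was Dlx1, whose window chr2:71367001-71368000 read 0.147% over 575 reads in Fbxl10 T/T and 0.495% over 851 reads in WT. These values leave out CpGs with fewer than 10 reads. With all reads at CpGs outside CCGG pooled, the Dlx1 window read 2.64% of 606 in Fbxl10 T/T and 1.0% of 897 in WT. Dlx2, the paralogue of Dlx1, matched chr2:71384001-71385000 and read 24.5% in Fbxl10 T/T and 1.8% in WT. The transcription factors and Wnt ligands were split, with 9 of 26 genes in members and 12 in risen windows. The forkhead factors Foxj3, Foxk2 and Foxp4 read 1.79%, 1.62% and 1.78% in Fbxl10 T/T, against 0.424%, 2.25% and 3.37% in WT. The ligands Wnt4 and Wnt11 read 3.53% and 3.9% in Fbxl10 T/T, against 2.0% and 3.71% in WT, and the factor Sox13 read 3.8% and 3.5%. Of 12 signalling genes, 6 were members and 5 were risen. Fgf18, a growth factor, read 4.71% in Fbxl10 T/T and 1.19% in WT, and Bmp6, a ligand of the TGF-beta superfamily, read 1.09% and 1.65%. The Wnt receptors Fzd5 and Fzd4 read 2.12% and 3.09% in Fbxl10 T/T, against 1.51% and 1.61% in WT. Notch3, a receptor of cell contact signals, read 6.59% in Fbxl10 T/T and 4.17% in WT, and Ephb6, an Eph receptor without kinase activity, read 0.29% and 0.417%. The 3 measured germline genes were at 10% or more in WT and so belonged to neither class.

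**Figure D3:**
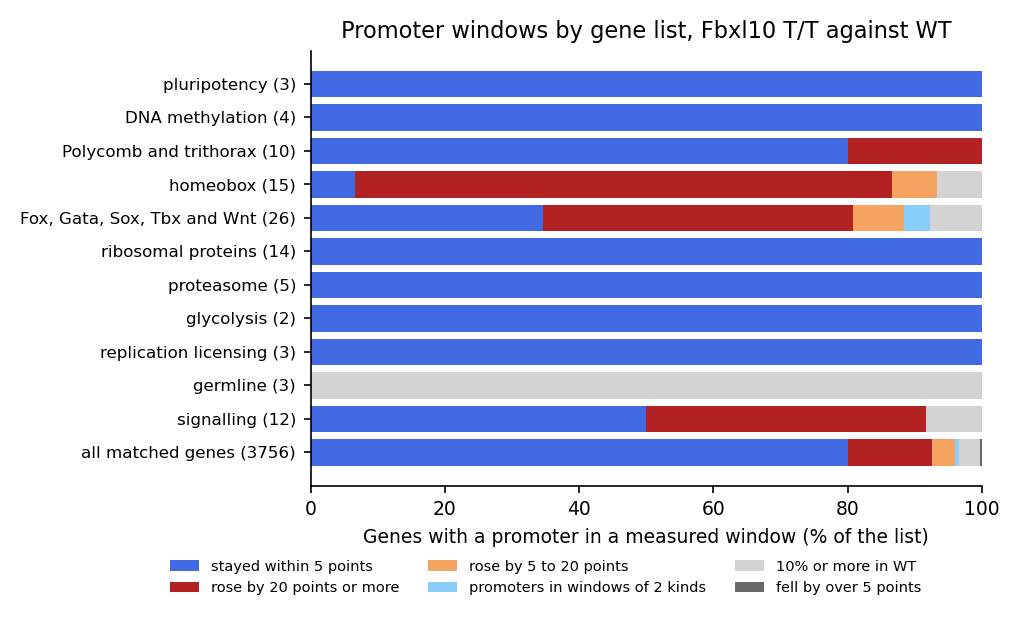
Share of each gene list's measured genes (x axis, percent; number of genes in brackets) by the class of their promoter window in Fbxl10 T/T against WT. Ribosomal, proteasome, glycolysis, replication, pluripotency and DNA methylation genes are wholly in members, 12 of 15 homeobox genes are in risen windows, and 80.1% of all 3756 matched genes are in members.

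The promoters of members and risen windows differed in which short motifs they held. Motifs were searched as letters on both strands over the 300 bases of each matched promoter. CCGGAAG, the ETS motif marked in the sequences above, was present in 809 of 3312 promoters in members (24.4%) and in 24 of 518 in risen windows (4.63%). Its share was 20.8% of the promoters in all measured windows and 8.86% of the whole RefSeq table. The shorter CGGAAG, which every CCGGAAG contains, was held by 38.3% of promoters in members and 12.2% in risen windows. Its share was 33.7% in all measured windows, which include the members, and 16.9% of the table. AAGATGGC, a core of the YY1 motif, was held by 4.08% in members and 0.386% in risen windows. Its share was 3.37% in all measured windows and 2.75% of the table. A palindrome like the NRF1 motif was held by 18.2% in members and 9.27% in risen windows. Its share was 16.5% in all measured windows and 6.23% of the table. Other motifs were near each other in both classes. The GC box GGGCGG was held by 82.9% in members and 81.1% in risen windows (35.7% of the table), the CCAAT box by 28.8% and 25.3% (37.4%), the E-box CACGTG by 10.8% and 9.85% (7.15%), the CRE motif TGACGTCA by 3.5% and 2.7% (1.79%), and TATAAA by 3.2% and 4.25% (13.6%). In all measured windows the GC box was held by 82.6%, CCAAT by 28.3%, CACGTG by 10.5%, TGACGTCA by 3.35% and TATAAA by 3.42%. A match describes letters only and shows no binding.

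**Figure D4:**
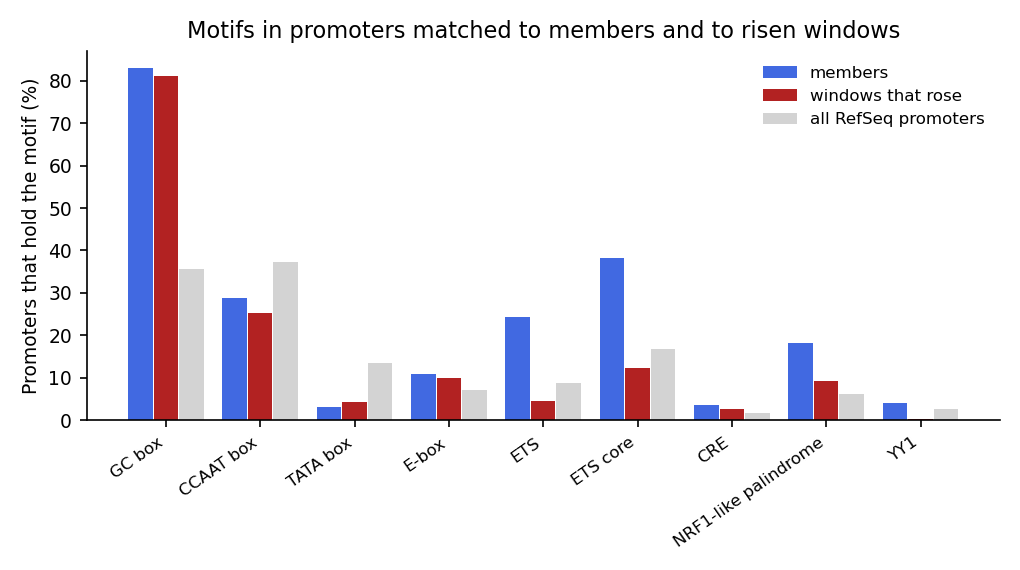
Share of promoters that hold each motif on either strand (y axis, percent), for promoters in members (blue), in risen windows (red) and in the whole RefSeq table (grey). The ETS motif is in 24.4% of promoters in members and 4.63% in risen windows, while the GC box is in 82.9% and 81.1%.

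The ETS motif contains CCGG, the site on which the libraries were built, so a promoter that holds it also holds a cut site, and the motif was also counted with that site left out. CGGAAG that was not preceded by C was held by 20.7% of promoters in members and 7.53% in risen windows. Promoters were also grouped by CpG number. With fewer than 25 CpGs, CCGGAAG was held by 30.6% in members and 4.7% in risen windows, with 25 to 34 by 27.5% and 4.97%, and with 35 or more by 17.7% and 4.26%. Read by motif, 24 of 844 promoters with CCGGAAG (2.84%) that were below 10% in WT lay in risen windows, against 494 of 3152 without it (15.7%). The share in members was 79.4% with no copy, 95.6% of 642 promoters with 1, 96.5% of 170 with 2 and 96.7% of 30 with 3. The risen shares with 1, 2 and 3 copies were 3.27%, 1.18% and 3.33%, so no gradient by copy number is read from these. The 1040 copies in members had a median position of -36 bases from the annotated start, and 75.4% lay from -100 to 50. For all copies in the table the median was -37 bases and the share 73.9%. Within the members the share with CCGGAAG was 23.0% of 434 promoters where the window differed by -5 to -1 points. It was 25.6% at -1 to 0 points, 24.7% at 0 to 1 point and 20.5% of 239 promoters at 1 to 2 points. It was 21 of 70 promoters at 2 to 3 points and 4 of 53 at 3 to 5 points. In windows that rose by 5 to 20 points it was 5.23% of 153 promoters. The difference chose the members, so these shares are a description and no trend is drawn from them. Among list genes in members, beside the 24.4% of all promoters in members, the motif was in 6 of 14 ribosomal, 3 of 5 proteasome, 1 of 3 replication, 1 of 8 Polycomb and trithorax and 1 of 6 signalling genes. It was in none of the 3 pluripotency, 4 DNA methylation, 2 glycolysis, 1 homeobox or 9 Fox, Gata, Sox, Tbx and Wnt genes. Sox21 and Fzd10 carried it in risen windows.

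The reads of the 3 Polycomb mutants did not enter the rule, but the WT reads they are compared with did. Few members were called higher by 20 points or more in the mutants. Windows were tested where at least 5 CpGs outside CCGG, covered in both libraries, gave at least 30 reads in each, with Fisher's exact test (two-sided) and Benjamini-Hochberg adjustment over all such windows. This compares the reads of 2 libraries and not 2 conditions. Calls needed both an adjusted p under 0.05 and a difference of 20 points or more. In Ring1B -/- 27 of 6166 members (0.438%) were called higher, against 1.3% of all tested windows. In Eed -/- it was 14 of 6416 (0.218%), against 0.352%. In Ezh2 -/- it was 9 of 6055 (0.149%), against 0.211%. All tested windows include the members. Of the risen windows, 30 of 1503 (2.0%) were called higher in Ring1B -/-, 5 of 1607 (0.311%) in Eed -/- and 4 of 1480 (0.27%) in Ezh2 -/-. Few calls are thus not particular to the members. No member and no risen window was called lower in any mutant. The share of all windows called lower was 0.554%, 0.671% and 0.787% in Ring1B -/-, Eed -/- and Ezh2 -/-. A window below 10% in WT, however, can scarcely fall by 20 points. Without the size limit, the same exact test called 852 members higher in Ring1B -/- (13.8%, against 12.7% of all tested windows), 826 in Eed -/- (12.9%, against 10.9%) and 479 in Ezh2 -/- (7.91%, against 6.82%). It called 12 members lower in Ring1B -/-, 10 in Eed -/- and 5 in Ezh2 -/-, which is 0.195%, 0.156% and 0.0826%, against 1.28%, 1.5% and 1.3% of all. These small differences stand beside the raised non-CpG levels of the mutants given next, whose part in them was not tested. All 3 mutants could be tested in 5124 members, 7247 were tested in at least 1, and 3082 had too few reads in every mutant.

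Pooled levels of the tested members were higher in the mutants, together with the level at cytosines outside CpGs. Reads at CpGs outside CCGG were methylated in 3.06% in Ring1B -/- (3.01% to 3.1%) and 1.51% in WT, in 2.87% in Eed -/- (2.82% to 2.91%) and 1.52% in WT, and in 2.36% in Ezh2 -/- (2.32% to 2.4%) and 1.49% in WT. Over all members, non-CpG cytosines read as C in 0.504% of reads in Fbxl10 T/T. Ring1B -/- stood at 2.48%, Eed -/- at 2.41%, Ezh2 -/- at 1.96% and WT at 0.562%. With this share of the same windows subtracted, the CpG difference turned round, to -0.325 points in Ring1B -/-, -0.466 in Eed -/- and -0.51 in Ezh2 -/-, so no direction is drawn from the pooled levels. The median tested member differed from WT by 0.647 points in Ring1B -/-, 0.468 in Eed -/- and -0.0751 in Ezh2 -/-. The ribosomal members, pooled over 14 windows, read 0.514% in Fbxl10 T/T beside a non-CpG share of 1.22%. They read 2.34% beside 2.36% in Ring1B -/-, 2.58% beside 2.8% in Eed -/-, 2.52% beside 2.65% in Ezh2 -/-, and 0.615% beside 1.14% in WT. The 9 members of Polycomb and trithorax genes read 2.29% beside 0.521% in Fbxl10 T/T. They read 3.21% beside 2.86% in Ring1B -/-, 3.21% beside 2.45% in Eed -/-, 2.52% beside 2.27% in Ezh2 -/-, and 2.57% beside 0.704% in WT.

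**Figure D5:**
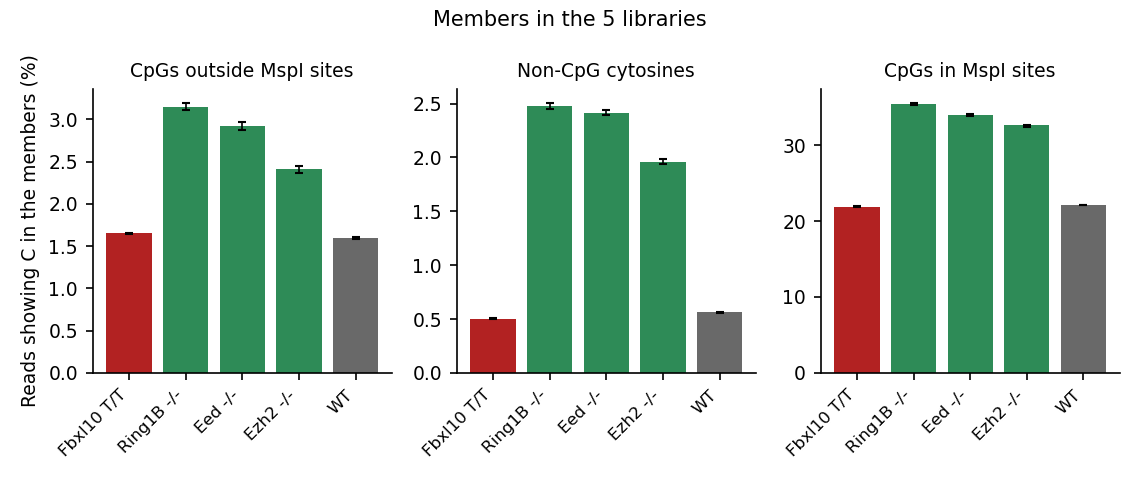
Share of reads showing C (y axes, percent, each from 0) over all members in the 5 libraries, at CpGs outside MspI sites, at non-CpG cytosines and at CpGs in MspI sites; bars are pooled reads and error bars 95% Wilson intervals. Fbxl10 T/T and WT are near each other in all panels, and the 3 Polycomb mutants are higher in all of them, at 1.96% to 2.48% against 0.562% in WT for non-CpG cytosines.

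The 3 comparisons share the WT library, so the called members are given with the value of each mutant side by side. The largest rise in Eed -/- was at chr7:7252001-7253000, which read 0.932% in Fbxl10 T/T. Its reads were methylated in 49.7% of 441 in Ring1B -/-, 59.0% of 488 in Eed -/-, 13.8% of 94 in Ezh2 -/- and 1.14% of 1672 in WT. The adjusted p from Fisher's exact test was 8.62e-143 in Ring1B -/- and 1.55e-192 in Eed -/-. The window chr5:150480001-150481000, at the promoter of B3glct, a glucosyltransferase gene, was among the 3 largest rises in Ring1B -/-. It read 0.403% in Fbxl10 T/T, 55.1% of 49 reads in Ring1B -/-, 26.4% of 87 in Eed -/- and 0.608% in WT over the CpGs compared with Ring1B -/-.

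In Ring1B -/- the largest rise was at chr8:112261001-112262000, with 60.0% of 55 reads in Ring1B -/- (46.8% to 71.9%) and 2.33% of 731 reads in WT, where Fisher's exact test gave 2.01e-28 as the adjusted p. The promoter window of Gmds, which encodes an enzyme of GDP-fucose synthesis, read 57.8% of 64 reads in Ring1B -/- and 1.38% in WT, and 3.67% in Eed -/-. In Eed -/- chr4:108453001-108454000 read 36.4% of 44 reads in Eed -/- and 3.27% in WT, and chr2:25402001-25403000 read 32.6% of 46 reads and 1.69%. In Ezh2 -/- chr11:84338001-84339000 read 42.9% of 49 reads in Ezh2 -/- and 4.69% in WT. There chr11:97408001-97409000 read 29.5% of 44 reads in Ezh2 -/- and 2.94% in WT, and chr11:5421001-5422000 read 24.5% of 49 reads and 0.444%. All but the window on chromosome 7 rest on under 100 mutant reads, and reads of 1 molecule cannot be told from reads of several. In the same windows Fbxl10 T/T read between 0.403% and 3.97%.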

How the data were processed

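Bisulfite reads of 5 libraries were used as deposited, 1 table per library with 1 row per cytosine. Per the submitters' processing notes, BSMAP 2.74 and build mm9 were used; trimming and removal of duplicates are not given in the sources used here. Per the file headers, the deposited counts are reads showing C and reads showing C or T, the deposited expected counts are the latter adjusted by the authors for variants on the opposite strand, and the deposited fraction is C over expected counts.

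Levels here are C counts over C or T counts, averaged over the CpGs of a 1-kb window with at least 10 reads in both libraries. Python 3.11.15, numpy 2.4.6, pandas 2.3.3, scipy 1.17.1 and matplotlib 3.10.9 were used. The Polycomb mutants were compared with WT on summed reads by Fisher's exact test (two-sided) with Benjamini-Hochberg adjustment at 0.05, and the procedure was tested on simulated data. RefSeq promoters (250 bases before to 50 after the start, GRCm38.p6) were assigned by unique runs of at least 40 letters shared with the 5-base contexts, and no coordinates were converted between builds.

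The windows, the 11 gene lists and the 9 motifs were chosen with earlier results of these data known. Named windows are the 5 members with the most CpGs, the 3 longest runs, the 3 largest called rises per mutant, the 4 on each side of each threshold, the 5 largest rises at CCGG CpGs and the 3 members beside the largest rise. Named genes are, per list, up to 6 members with the most CpGs. Alternatives varied read and CpG minimums, the window grid and size, CCGG sites, pooling, tolerance, call size and run length.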

Additional observations from a re-analysis of the deposited data

Results flagged for a closer look

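Data outside the main measurement stood above WT in the members of all 3 Polycomb mutants. Non-CpG cytosines of the members read as C in 2.48% of reads in the Ring1B -/- library, 2.41% in the Eed -/- library and 1.96% in the Ezh2 -/- library, against 0.562% in WT. CpGs inside CCGG of the members read as C in 35.4% of reads in the Ring1B -/- library, 34.0% in the Eed -/- library and 32.6% in the Ezh2 -/- library, against 22.1% in WT. The risen windows also stood above WT, with non-CpG shares of 2.3%, 2.37% and 1.92% in the Ring1B -/-, Eed -/- and Ezh2 -/- libraries, against 0.512% in WT, and CCGG shares of 36.1%, 33.9% and 33.9%, against 23.6% in WT. In each case in the members the 95% Wilson interval of the mutant lay above that of WT. The members' shares were 0.504% and 21.9% in Fbxl10 T/T.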

How the results depend on the processing

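The number of members lay between 7510 and 11786 and their share of windows below 10% in WT between 65.4% and 79.0% over all alternatives tried. Calls in the Polycomb mutants moved with depth, with the CCGG CpGs and with the size required. With 20 reads per window 50 members were called higher in Ring1B -/- (0.688%, against 1.75% of all windows) and 29 in Eed -/- (0.389%, against 0.51%). With 60 reads it was 8 in Ring1B -/- (0.224%, against 0.714%), 2 in Eed -/- (0.0531%, against 0.18%) and 2 in Ezh2 -/- (0.0609%, against 0.0697%). With CCGG CpGs kept, 147, 76 and 63 were called higher in Ring1B -/-, Eed -/- and Ezh2 -/- (1.9%, 0.959% and 0.826% of tested members, against 3.12%, 1.17% and 1.1% of all windows), none was called lower in Ring1B -/-, 3 in Eed -/- and 1 in Ezh2 -/-, and the levels differed from WT by 5.05, 4.42 and 3.79 points. With the mean over CpGs of at least 5 reads, 9, 8 and 1 members were higher. These were 0.229%, 0.193% and 0.0271% of tested members, against 0.86%, 0.23% and 0.0805% of all windows. Under that mean 1 each was lower in Eed -/- and Ezh2 -/-, and the levels differed by 1.12, 1.05 and 0.564 points. At a difference of 10 points 180, 156 and 99 were higher (2.92%, 2.43% and 1.64% of members, against 3.84%, 2.38% and 1.72% of all windows) and 4, 3 and 1 lower, so in Eed -/- the members' share was no longer below that of all windows. With the non-CpG share subtracted, an alternative chosen after seeing the data, the level differences turned to -0.325, -0.466 and -0.51 points. The non-CpG difference of Fbxl10 T/T from WT was -0.0544 points at 1 read and -0.0446 at 20 reads per cytosine, with the same sign as at 10 reads. With runs of 60 letters 1243 members matched a promoter. The excess of CCGGAAG in members over risen windows was 19.8 points, 17.9 with 60-letter runs and 13.2 for CGGAAG not preceded by C, both chosen after seeing the data. Except where an alternative tests fewer windows or sites by construction, the cause was not tested. No paired analysis was possible because each genotype has 1 library and the labels carry no replicate numbers.

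Depth limits the Polycomb comparisons: the median tested member had 68 reads in Ring1B -/- and Eed -/- and 64 in Ezh2 -/-. With 1 library per genotype no spread between cultures is known.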

Other observations

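On the X chromosome, which the rule leaves out, 192 of 270 windows below 10% in WT (71.1%) stayed within 5 points in Fbxl10 T/T and 47 rose by 20 points or more. Their median level was 1.17% in Fbxl10 T/T and 1.25% in WT. With promoters matched by runs of 30 letters instead of 40, members took 20 of 20 ribosomal genes, 12 of 12 proteasome genes, 13 of 15 Polycomb and trithorax genes, 6 of 6 DNA methylation genes and 3 of 23 homeobox genes, while 4398 of all 5558 genes so matched lay in members.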
